A study of Mus musculus with 16 samples.

Results

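Autophagy delivers cytoplasm, organelles and lipid droplets to the lysosome inside a double membrane, the autophagosome. The ULK1 kinase complex starts the process, a class III phosphatidylinositol 3-kinase complex marks the site, lipid transfer proteins enlarge the membrane (the phagophore), and a pair of ubiquitin-like conjugation systems attach the Atg8 family proteins (LC3 and GABARAP) to it, where cargo receptors bind. In macrophage foam cells this route, called lipophagy when the cargo is a lipid droplet, brings droplet cholesterol esters to lysosomal acid lipase, beside the neutral hydrolysis that takes place on the droplet surface. The mRNA level of these genes is not a measure of autophagic flux, which depends on protein modification and on lysosomal turnover.

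The 37 genes described here were chosen by name as the machinery of initiation, nucleation, membrane growth, conjugation and cargo binding, out of 48432 genes in the deposited table. All 37 were found, all are protein-coding, and all had a mean above the minimum used for comparisons. They fall into 7 roles: 5 genes of the ULK1 complex, 6 of the phosphatidylinositol 3-kinase complex, 6 of phagophore growth, 7 of conjugation, 4 Atg4 proteases, 5 Atg8 genes and 4 cargo receptors.

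The RNA came from peritoneal macrophages (PM) of C57BL/6J mice, collected 5 days after injection of 3% thioglycolate. The PM were loaded with oxidized LDL (oxLDL) at 50 μg/ml for 48 h. During the loading the medium held less serum than during the overnight culture before it. This lower serum was shared by all groups, and its part in the levels below was not tested. LDAH, the lipid droplet-associated hydrolase, was overexpressed in LDAH-Tg PM from a transgene driven by the *Csf1r* promoter, which is active in macrophages, and was deleted in LDAH-KO PM by a cassette that replaces part of its coding exons. Each genotype had its own WT controls, giving 4 groups of 4 samples, 16 in all, each of them treated with oxLDL, so that no unloaded PM are compared here. The control label of the LDAH-Tg arm also names ApoE, the *Apoe* genotype of these mice is not given in the sources used here, and *Apoe* was listed at 7947 TPM or more in each group. *Ldah* itself was 28.5 TPM in the WT controls of LDAH-Tg PM, 124 TPM in LDAH-Tg PM, 44.5 TPM in the WT controls of LDAH-KO PM and 27.9 TPM in LDAH-KO PM, and it cannot be seen from the means which exons the reads left in LDAH-KO PM came from.

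The values are the authors' means per group in TPM, transcripts per 1000000, a level per transcript length that can be compared between genes. No value per sample is in the table used here. The spread between samples and the depth are therefore unknown, no SD, p-value or check by replicates is attached to any difference below, and "higher" and "lower" refer to the means alone. Ratios are log2 ratios after adding 0.5 TPM to both means. They cover genes with a mean of at least 1 TPM over the 2 groups and no group at 0. Factors of 1.5 and 1.2 are used as sizes to count genes, and neither is a test.

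Of the 8 macrophage markers 7 had a value above 0 in each group, among them *Cd68* at 3023 to 4959 TPM and *Csf1r* at 94.2 to 108 TPM. *Lyz2* was listed at 0 in 3 groups and at 10105 TPM in LDAH-Tg PM, so the summed level of that list is not informative. Of the 7 with a ratio, 6 were lower in LDAH-Tg PM, *Adgre1* by a log2 ratio of -0.55 (33.1 and 22.4 TPM) and *Itgam* by -0.39 (144 and 110.2 TPM), both past a factor of 1.2. In LDAH-KO PM 5 of the 7 were lower, *Itgam* by -0.33 and *Mrc1* by -0.37, while *Adgre1* was at 146 TPM in the WT controls and 147 TPM in LDAH-KO PM. Of all genes compared, 49.5% were lower in LDAH-Tg PM and 66.6% in LDAH-KO PM. The part of these macrophage markers in the ratios below was not tested. Markers of B cells, T cells, mast cells and eosinophils summed to at most 4.56 TPM per list and group. The 4 neutrophil markers summed to 63.8 to 107 TPM, nearly all from *S100a8*, with *Ly6g* listed at 0 in each group. The 4 fibroblast markers summed to 19.9 and 18.3 TPM in the WT controls and LDAH-Tg PM, and to 29.8 and 15.4 TPM in the WT controls and LDAH-KO PM. The 4 mesothelial markers summed to 5.05, 5.24, 5.41 and 2.70 TPM in the same order. In LDAH-KO PM all 3 fibroblast and both mesothelial markers with a ratio were lower than in WT by a factor of 1.5 or more. This was so for 1.83% of all genes compared, and the part of such cells in the ratios below was not tested. In bulk RNA, fewer cells of a type and less RNA per cell cannot be told apart.

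The Atg8 family held the most abundant transcripts of the machinery. Its products are made with extra residues that Atg4 proteases remove, so that a glycine becomes the new end and can be joined to phosphatidylethanolamine. The coding ends of the 5 mouse genes are shown because they carry this site and because they separate *Map1lc3b* from the other members. Each line gives the last 30 coding bases with the stop codon (GENCODE M21 on GRCm38), 5′ to 3′, with the codon of the last glycine in capitals.
Map1lc3a: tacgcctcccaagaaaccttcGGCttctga
Map1lc3b: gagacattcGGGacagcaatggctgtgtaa
Gabarap: tacagtgatgaaagcgtctatGGTctgtga
Gabarapl1: tacagtgatgaaagtgtctatGGAaaatga
Gabarapl2: tacagcggagagaacacttttGGCttctga

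In *Map1lc3b* 5 codons stand between that glycine and the stop codon, against 1 codon in each of the other 4 genes. The coding sequences of *Map1lc3a* and *Map1lc3b* were 75.3% identical, with a longest identical run of 15 bases, and those of *Gabarap* and *Gabarapl1* were 74.9% identical, with a longest run of 17 bases. These runs are short beside paired reads of 100 bases. Longer shared stretches were counted over the whole annotation. Of all 100-base stretches of the *Gabarapl1* transcripts, 18% also occur in the transcripts of another gene, as do 6.80% of those of *Gabarapl2*, which has pseudogene copies, and 2.88% of those of *Map1lc3b*, while no such stretch was found for *Map1lc3a* and *Gabarap*.

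*Gabarap*, a GABARAP subfamily gene (chromosome 11 of GRCm38, 69991143 to 69994951), was listed at 1066 TPM in the WT controls of LDAH-Tg, 1046 TPM in LDAH-Tg PM, 1266 TPM in the WT controls of LDAH-KO and 1339 TPM in LDAH-KO PM. It was the highest of the 37 genes and made up 66.2% to 68.2% of the summed TPM of the Atg8 family in each group. *Gabarapl1* (chromosome 6, 129533160 to 129542346) followed with 250.4, 226, 419 and 399 TPM in the same order of groups. *Map1lc3b* (chromosome 8, 121590361 to 121598760), which encodes the LC3 protein most often used as a marker of autophagosomes, had 141, 146, 126 and 128 TPM. *Gabarap* mRNA was thus 7.55 and 7.15 times that of *Map1lc3b* in the WT controls and LDAH-Tg PM, and 10.1 and 10.4 times in the WT controls and LDAH-KO PM. *Map1lc3a*, the other LC3 gene, had 60.1, 69.3, 47.0 and 49.8 TPM, and *Gabarapl2*, also known as GATE-16, had 54.7, 45.6, 55.8 and 59.0 TPM.

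Against their own WT controls these 5 transcripts differed little. In LDAH-Tg PM the log2 ratio was 0.20 for *Map1lc3a*, 0.05 for *Map1lc3b*, -0.03 for *Gabarap*, -0.15 for *Gabarapl1* and -0.26 for *Gabarapl2*, so that both LC3 genes were higher and the 3 GABARAP subfamily genes lower than in WT. The ratios of *Map1lc3b* and *Gabarap* lay near 0, none of the 5 reached a factor of 1.2, and 50.5% of all genes compared were higher. In LDAH-KO PM 4 of the 5 were higher than in WT, *Map1lc3a*, *Gabarap* and *Gabarapl2* each by 0.08 and *Map1lc3b* by 0.03. Over all genes compared 33.4% were higher. *Gabarapl1* was lower by a log2 ratio of -0.07, which median-ratio scaling turned to above 0. Centring by length, described below, turned *Map1lc3a* below WT in LDAH-KO PM. The summed level of the family was 1573 TPM in the WT controls against 1534 TPM in LDAH-Tg PM. In the LDAH-KO arm it was 1913 TPM in the WT controls and 1975 TPM with LDAH deleted. The authors' entry for *Map1lc3b* is placed in a merged locus that spans 189 genes, which is a property of the locus column and does not show how its reads were assigned.

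**Figure D1:**
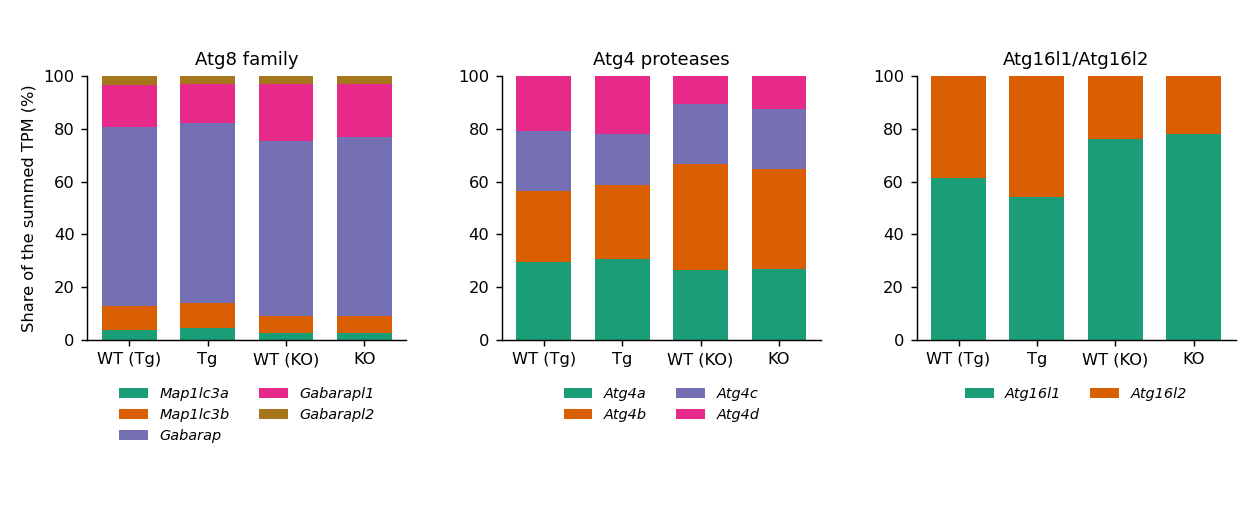
Share of the summed TPM (vertical axis, %) that each gene takes of the Atg8 family, the Atg4 proteases and the *Atg16l1*/*Atg16l2* pair in the authors' mean of each group, with no error bars since no value per sample was used. *Gabarap* takes 66.2% to 68.2% of the Atg8 transcripts in each group, while the share of *Atg16l1* is 61.4% in the WT controls of LDAH-Tg, 54.0% in LDAH-Tg PM, 76.2% in the WT controls of LDAH-KO and 78.0% in LDAH-KO PM.

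The 4 cargo receptors link ubiquitylated or other cargo to Atg8 proteins. *Sqstm1* (p62; chromosome 11, 50199366 to 50210827), which is itself degraded by autophagy as a protein, was the second most abundant of the 37 transcripts, with 824 TPM in the WT controls and 787 TPM in LDAH-Tg PM (-0.07 on the log2 scale) and with 608 TPM in the WT controls and 592 TPM in LDAH-KO PM (-0.04 on the log2 scale). *Nbr1*, a receptor that works with p62, had 59.8, 55.5, 65.7 and 56.6 TPM in the order WT, LDAH-Tg, WT, LDAH-KO, with log2 ratios of -0.11 and -0.21. *Optn* (optineurin) had 38.1, 37.5, 49.5 and 43.9 TPM and log2 ratios of -0.02 and -0.17. *Calcoco1*, a receptor of ER and Golgi membranes, had 27.2, 30.0, 22.3 and 20.3 TPM and log2 ratios of 0.14 and -0.14. All 4 were lower in LDAH-KO PM than in WT without reaching a factor of 1.2, beside 66.6% lower over all genes compared. Median-ratio scaling and centring by GC content, described below, placed *Sqstm1* above WT there. In LDAH-Tg PM 3 of the 4 were lower, beside 49.5% of all genes. *Sqstm1* shares 13.7% of its 100-base stretches with an overlapping gene, *Mrnip*, and since the strand setting of the counting is not given in the sources used here, reads of overlapping genes may not be separable.

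The conjugation genes spanned the widest range of ratios in LDAH-Tg PM. *Atg16l2* (chromosome 7, 101263034 to 101302251, minus strand), a paralog of the gene for the Atg16l1 scaffold that directs LC3 attachment, had 10.4 TPM in the WT controls and 15.4 TPM in LDAH-Tg PM, which is 0.55 on the log2 scale and lies just short of a factor of 1.5. It had 6.67 TPM in the WT controls and 5.84 TPM in LDAH-KO PM, which is -0.18 on the log2 scale. *Atg16l1* itself had 16.5 and 18.1 TPM (0.13 on the log2 scale) and 21.4 and 20.7 TPM (-0.04 on the log2 scale). Its level was 1.59 times that of *Atg16l2* in the WT controls and 1.17 times in LDAH-Tg PM, and 3.20 and 3.54 times in the WT controls and LDAH-KO PM. *Atg3* (chromosome 16, 45158785 to 45188538), the E2-like enzyme that transfers Atg8 proteins to lipid, was the only member lower by a factor of 1.2 in LDAH-Tg PM, with 71.3 TPM in the WT controls and 57.0 TPM in LDAH-Tg PM (-0.32 on the log2 scale), against 109 and 113 TPM in the WT controls and LDAH-KO PM (0.06 on the log2 scale).

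The other conjugation transcripts were closer to WT. *Atg7*, the E1-like enzyme of both systems, had 155 and 167 TPM in the WT controls and LDAH-Tg PM (0.11 on the log2 scale) and 91.5 and 82.8 TPM in the WT controls and LDAH-KO PM (-0.14 on the log2 scale). *Atg12* and *Atg5*, the ubiquitin-like protein and its target, had 68.5 and 60.3 TPM and 50.7 and 45.0 TPM in the LDAH-Tg arm, log2 ratios of -0.18 and -0.17. In the LDAH-KO arm they had 116 and 108 TPM and 80.5 and 80.9 TPM, log2 ratios of -0.10 and 0.01. *Atg12* was 1.34 to 1.45 times *Atg5* in the 4 groups, although the level of each differed by a factor of 1.5 or more between the WT groups. *Atg10*, the E2-like enzyme of the Atg12 system, had log2 ratios of -0.17 and -0.04. Of the 7 conjugation genes, 4 were lower in LDAH-Tg PM and 5 in LDAH-KO PM, beside 49.5% and 66.6% of all genes compared. The latter count fell to 3 with median-ratio scaling or quantile normalization, under which *Atg10* and *Atg16l1* turned above WT. The medians over all genes were then 0 and 0.0085, so the 66.6% does not apply to that count.

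Since *Atg16l2* and *Atg3* stood furthest from their WT controls in LDAH-Tg PM, their promoters are shown where they hold either of the motifs searched. The motifs were the palindromic E-box CACGTG, which takes in the core of the sites bound by TFEB and related factors, and the cAMP response element TGACGTCA. The windows run from 250 bases before to 50 bases after the RefSeq start on GRCm38.p6, read on both strands, and 31 of the 37 genes have one. *Atg12*, *Atg16l1*, *Becn1*, *Map1lc3a*, *Pik3c3* and *Rb1cc1* are not in that table. Capitals mark the motif, and each line is on the strand of its gene, 5′ to 3′.
Atg16l2 (chr7:101302090-101302115, minus strand): ctgccgcccTGACGTCAtggagtccc
Atg3 (chr16:45158726-45158749, plus strand): tccttttgtCACGTGtcctgggag
Atg3 (chr16:45158749-45158772, plus strand): gagtcgagtCACGTGaggccttag

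The motif of *Atg16l2* lies 18 to 11 bases before the start, and those of *Atg3* lie 94 to 89 and 71 to 66 bases before it. CACGTG was found in 4 of the 31 promoters, those of *Atg14*, *Atg3*, *Atg5* and *Atg7*, which is 12.9% against 8.09% of the 27025 genes in the table. TGACGTCA was found in 2 of the 31, *Atg16l2* and *Atg5*, 6.45% against 2.03% of all genes. The 4 genes with CACGTG did not share a direction, since in LDAH-Tg PM *Atg14*, *Atg3* and *Atg5* were below their WT controls and *Atg7* was above. A match describes these letters only and is not a measured site.

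The Atg4 proteases, which cut the Atg8 ends shown above and later release Atg8 proteins from membranes, lay between 13.7 and 21.6 TPM in the LDAH-Tg arm and further apart in the LDAH-KO arm. In the order WT, LDAH-Tg, WT, LDAH-KO, *Atg4a* had 20.8, 21.6, 34.5 and 33.5 TPM, and *Atg4b*, the main enzyme for LC3, had 19, 19.9, 51.8 and 46.7 TPM. *Atg4c* had 16.0, 13.7, 29.5 and 28.5 TPM, and *Atg4d* had 14.6, 15.4, 13.8 and 15.4 TPM. *Atg4c* was the lowest against WT in LDAH-Tg PM, with a log2 ratio of -0.21, and the other 3 were higher by 0.05 to 0.07. In LDAH-KO PM *Atg4d* was higher by 0.15, and *Atg4b* was the lowest with -0.15. None reached a factor of 1.2 in either genotype. With median-ratio scaling or quantile normalization *Atg4a* and *Atg4c* turned from below to above WT in LDAH-KO PM. *Atg4a* shares 34.7% of its 100-base stretches with the pseudogene *Atg4a-ps*, and *Atg4d* 10.5% with *Kri1*.

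The 5 initiation genes summed to 119 to 138 TPM over the 4 groups. *Ulk1*, the kinase that receives mTORC1 and AMPK signals, had 9.02 TPM in the WT controls and 10.8 TPM in LDAH-Tg PM, which is 0.25 on the log2 scale and just short of a factor of 1.2. It had 9.12 TPM in the WT controls and 7.90 TPM in LDAH-KO PM, which is -0.19 on the log2 scale. Its paralog *Ulk2* had 7.61 and 7.57 TPM in the LDAH-Tg arm and 19.5 and 18.2 TPM in the LDAH-KO arm. *Ulk2* was therefore 0.844 and 0.702 times *Ulk1* in the first pair of groups and 2.14 and 2.30 times in the other. Of the other subunits, *Rb1cc1* (FIP200) had 23.7 to 29.3 TPM, *Atg13* 29.3 to 42.3 TPM and *Atg101* 40.1 to 44.6 TPM over the 4 groups. Their log2 ratios were -0.05, 0.16 and -0.00 in LDAH-Tg PM and -0.20, -0.13 and 0.15 in LDAH-KO PM.

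In the phosphatidylinositol 3-kinase complex *Becn1* (Beclin 1) was the most abundant transcript, at 66.0 and 67.4 TPM in the WT controls and LDAH-Tg PM (0.03 on the log2 scale) and 139 and 125 TPM in the WT controls and LDAH-KO PM (-0.15 on the log2 scale). Of its 100-base stretches, 30.7% are shared with *Cntd1*. *Ambra1*, a partner of Beclin 1, had 16.3 TPM in the WT controls and 18.1 TPM in LDAH-Tg PM (0.15 on the log2 scale), and 16.0 TPM in the WT controls and 11.9 TPM in LDAH-KO PM. The log2 ratio of -0.41 in LDAH-KO PM was the lowest of the 37. *Pik3r4*, the regulatory subunit Vps15, had 12.5 and 11.9 TPM (-0.06 on the log2 scale) and 11.8 and 9.25 TPM (-0.33 on the log2 scale). The catalytic subunit *Pik3c3* (Vps34) had log2 ratios of -0.18 and -0.11.

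*Atg14* and *Uvrag*, which direct the complex to autophagosome formation and to later steps, had 6.28 and 19.8 TPM in the WT controls of LDAH-Tg and 10.0 and 35.5 TPM in those of LDAH-KO, with ratios of -0.09 to 0.01 in both genotypes. *Uvrag* was 2.99 to 3.82 times *Atg14* in the 4 groups. *Becn1* was 10.5 to 13.9 times *Atg14*. The order of these 3 transcripts was therefore the same in each group.

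The 6 phagophore growth genes were all lower in LDAH-KO PM than in WT, with log2 ratios from -0.33 to -0.09 and a median of -0.19, beside 66.6% lower and a median of -0.08 over all genes compared. They stayed below WT with median-ratio scaling and quantile normalization, with medians of -0.12 and -0.08 beside 0 and 0.0085 over all genes. With the ratios centred on genes of like transcript length, described below, the median was -0.05, *Atg2b* stood at -0.06 and *Atg2a* turned above WT. Centring by GC content turned *Vmp1* above WT. In LDAH-Tg PM 5 of the 6 were higher and the median was 0.12, beside 50.5% higher and a median of 0.0022 over all genes compared. *Atg2b*, one of a pair of lipid transfer proteins, had 3.78 TPM in the WT controls and 4.14 TPM in LDAH-Tg PM (0.12 on the log2 scale), and 4.95 TPM in the WT controls and 3.83 TPM in LDAH-KO PM (-0.33 on the log2 scale). It was the least abundant of the 37. Its paralog *Atg2a* had log2 ratios of 0.22 and -0.17 at 6.32 to 11.5 TPM. *Vmp1*, an ER protein that scrambles lipids between membrane leaflets, was by far the most abundant of the role, at 300.0 TPM in the WT controls and 327 TPM in LDAH-Tg PM (0.12 on the log2 scale) and 220.2 TPM in the WT controls and 206 TPM in LDAH-KO PM (-0.09 on the log2 scale). *Atg9a*, the scramblase of the seed vesicles, had log2 ratios of 0.10 and -0.20 at 8.63 to 10.2 TPM. The lipid-binding proteins *Wipi1* and *Wipi2* had -0.06 and 0.13 in LDAH-Tg PM and -0.19 and -0.20 in LDAH-KO PM, at 10.4 to 12.9 TPM and 18.7 to 24.4 TPM.

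**Figure D2:**
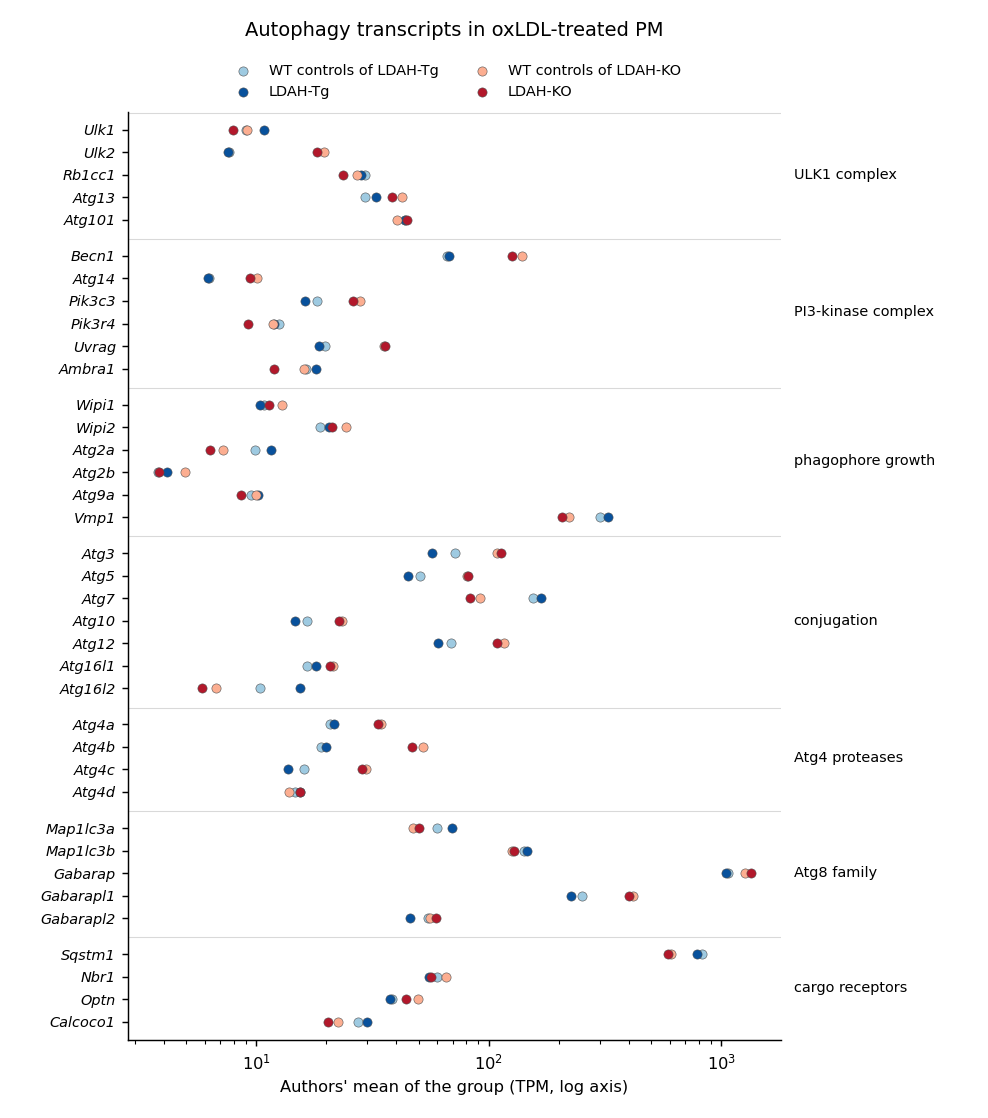
Authors' mean TPM of the 37 autophagy genes (horizontal log axis) in the 4 groups, 1 point per group and gene, in the order of their roles. Points of a genotype and its own WT controls lie close together for nearly every gene, while the WT groups lie apart for genes such as *Ulk2*, *Becn1*, *Atg4b* and *Atg7*. *Gabarap* and *Sqstm1* are the highest and *Atg2b* the lowest.

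Over the 37 genes, LDAH-Tg PM were close to their WT controls. The median log2 ratio was -0.0037, beside 0.0022 over all 11395 genes compared, and 18 of the 37 were higher and 19 lower. None of the 37 was higher by a factor of 1.5, against 1.26% of all genes, and none was lower, against 0.685%. At a factor of 1.2 only *Atg16l2* was higher, against 11.2% of all genes, and only *Atg3* was lower, against 8.48%. Just outside that size were *Gabarapl2* with -0.26 and *Ulk1* with 0.25. A ratio within a factor of 1.1 was found for 22 of the 37 genes, 59.5%, and for 52.4% of all genes.

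LDAH-KO PM had more of these transcripts below than above their WT controls, as was so over all genes compared. The median log2 ratio was -0.10, and 28 of the 37 genes, 75.7%, were lower, beside a median of -0.08 and 66.6% lower over all 11289 genes compared. No member was higher by a factor of 1.5 (0.39% of all genes) and none was lower (1.83%). At a factor of 1.2 none was higher (3.22% of all genes), and 3 were lower, *Pik3r4*, *Ambra1* and *Atg2b* (15.6% of all genes), with *Nbr1* next at -0.21. The share of members lower by that size, 3 of 37, was thus below that of all genes. When each column was scaled by the median ratio of all genes or quantile normalized, *Ambra1* alone was left past 1.2, against 8.67% and 6.89% of all genes. Then 15 of the 37 were higher and 22 lower than in WT, in place of 9 and 28. The members' medians were -0.02 and -0.05, beside 0 and 0.0085 over all genes, so the 66.6% does not apply to these scaled ratios.

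**Figure D3:**
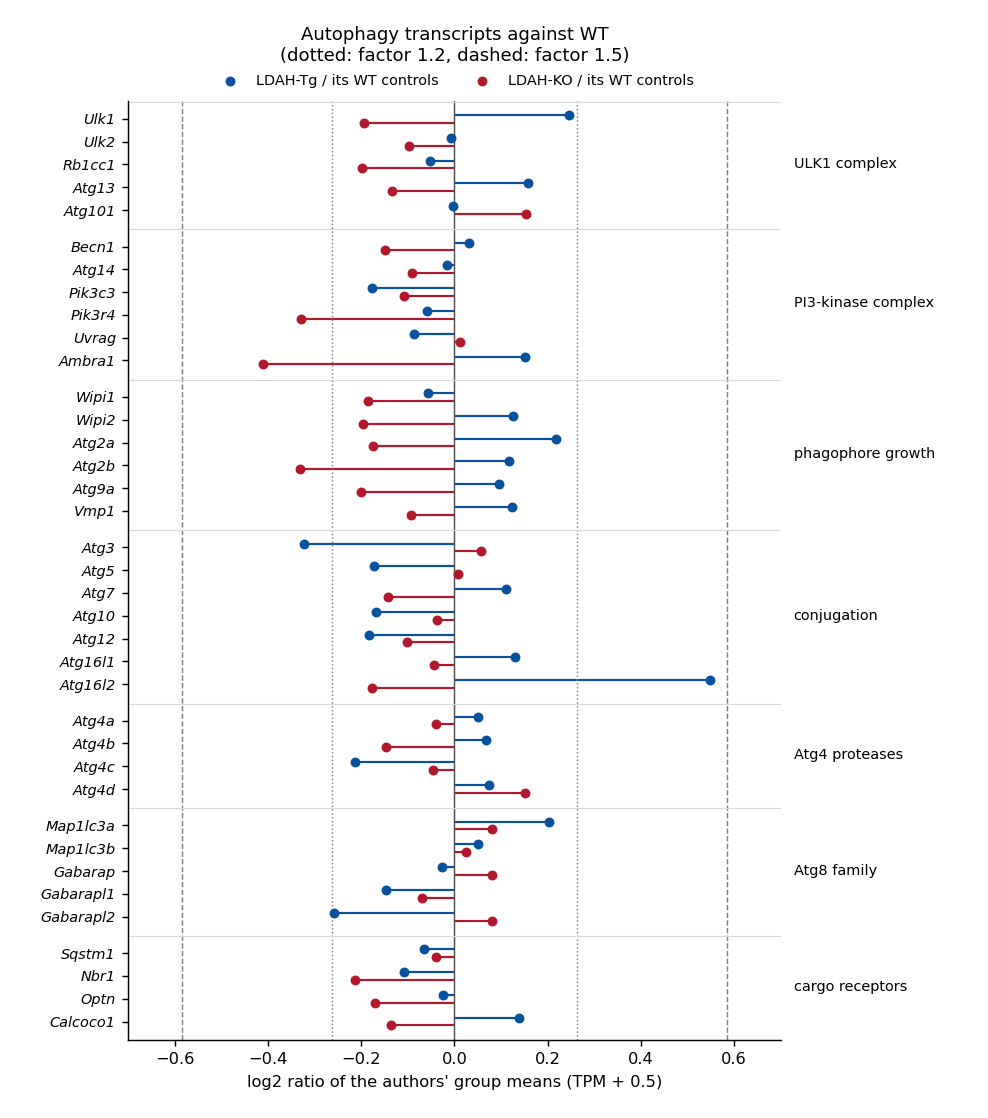
Log2 ratio of each of the 37 genes to its own WT controls, blue for LDAH-Tg PM and red for LDAH-KO PM, from the authors' means after adding 0.5 TPM, with dotted lines at a factor of 1.2 and dashed lines at 1.5. The points lie within the dashed lines, *Atg16l2* in LDAH-Tg PM comes closest to one at 0.55, and in the phagophore growth role the 6 red points are below 0 and 5 of the 6 blue points above it. Over all genes compared, 66.6% were lower in LDAH-KO PM and 50.5% higher in LDAH-Tg PM.

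Set side by side, 15 of the 37 genes, 40.5%, stood above WT in LDAH-Tg PM and below WT in LDAH-KO PM, among them *Ulk1*, *Ambra1*, *Atg2a*, *Atg2b*, *Atg7* and *Atg16l2*. Over the 10858 genes with both ratios this was so for 32.3%. The opposite pair of directions was found for 6 genes, *Atg101*, *Uvrag*, *Atg3*, *Atg5*, *Gabarap* and *Gabarapl2*, 16.2% against 17.1% of all genes. Both ratios were above 0 for 3 genes, *Atg4d*, *Map1lc3a* and *Map1lc3b*, 8.11% against 16.7% of all genes. Both were below 0 for 13 genes, 35.1% against 33.9%. With median-ratio scaling or quantile normalization 10 genes, in place of 6, were lower in LDAH-Tg PM and higher in LDAH-KO PM. Those higher in LDAH-Tg PM and lower in LDAH-KO PM were then 13, in place of 15. The shares over all genes were not counted under these scalings, so the shares above do not apply to them. Centring by length, described below, turned *Atg2a* and *Atg16l2* above WT in LDAH-KO PM.

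Transcript length and base composition moved with the ratios. Across the 37 genes the log2 ratio in LDAH-KO PM was lower where the longest annotated transcript was longer (Pearson r = -0.59, Spearman rho = -0.65), as it did across all 11262 genes with a length (r = -0.41, rho = -0.54). The 18 members shorter than 3751 bases had a median of -0.04 on the log2 scale in LDAH-KO PM, 6 of them being higher than in WT, and the 19 others had a median of -0.17, 3 of them being higher. *Pik3r4*, *Ambra1* and *Atg2b*, the 3 members past 1.2, have transcripts of 4929, 5203 and 7546 bases, while *Map1lc3a*, *Gabarap* and *Gabarapl2* have 1112, 1351 and 1677 bases. When the median ratio of all genes of like length was subtracted, in 10 bins of length, no member was lower by 1.2 in LDAH-KO PM, against 5.8% of all genes. *Atg4d* alone was higher by that size, against 3.76%. It was binned by its longest annotated transcript, of 5951 bases, which need not be the transcript measured. The median of the members was -0.01, and 17 of the 37 were higher and 20 lower.

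Across the 37 genes the ratio of LDAH-Tg PM to WT was higher at higher GC content (r = 0.52, rho = 0.55) and so, more weakly, across all 11372 genes with a value (r = 0.24, rho = 0.31). *Atg3*, at 40.1% GC, is at the low end of the members and *Map1lc3a*, at 63.1%, is the highest. After subtracting the median of all genes of like GC content, *Atg3* stood at -0.24, short of a factor of 1.2, while *Atg16l2* (49.8% GC) remained past it. These are correlations across genes of the same means, not across mice, and genes are not independent replicates. The part of length and GC content in the ratios was not tested.

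**Figure D4:**
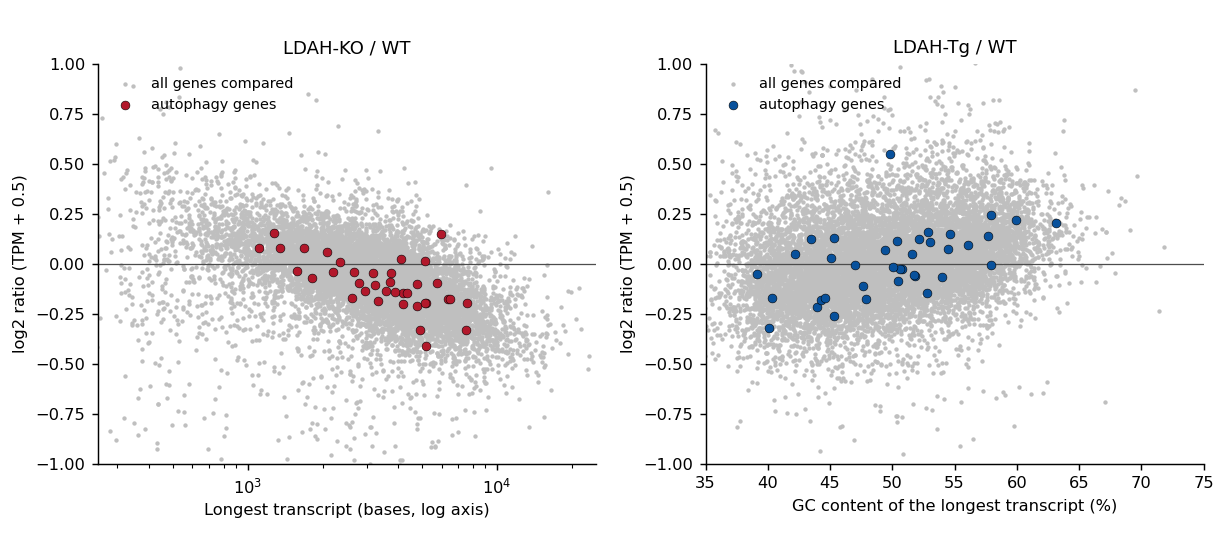
Log2 ratio in LDAH-KO PM against the length of the longest annotated transcript (left, log axis) and in LDAH-Tg PM against its GC content (right), for all genes compared (grey) and the 37 autophagy genes (coloured), with genes beyond the axes not drawn. The coloured points run downward with length on the left (rho = -0.65) and upward with GC content on the right (rho = 0.55), with *Atg16l2* the highest coloured point at 0.55.

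The WT groups differed from each other far more than either genotype from its controls. In the WT controls of LDAH-Tg against those of LDAH-KO, 2 of the 37 genes were higher by a factor of 1.5, *Atg7* (0.75 on the log2 scale) and *Atg16l2* (0.60), against 12.1% of all 11404 genes compared, and 12 were lower, against 26.5%. The 12 were *Ulk2*, *Becn1*, *Atg14*, *Pik3c3*, *Uvrag*, *Atg3*, *Atg5*, *Atg12*, *Atg4a*, *Atg4b*, *Atg4c* and *Gabarapl1*, with *Atg4b* (-1.43), *Ulk2* (-1.30) and *Becn1* (-1.07) lower by more than a factor of 2. At a factor of 1.2, 7 were higher (25.1% of all genes) and 18 lower (44.6%). The median was -0.25 over the members and -0.17 over all genes, so the members' ratios in this comparison include a shift common to all genes. With median-ratio scaling, which removes that shift of 0.17, 5 were higher and 5 lower by 1.5, against 18.5% and 18.3% of all genes. With quantile normalization 4 were higher and 6 lower, against 18.4% and 18.3%. The line, the controls' background and any difference in handling cannot be told apart between these groups. These WT groups are also the controls of the genotype comparisons, so no overlap with those is given.

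Genes around the machinery were read from lists of their own. Of 15 other core and accessory autophagy genes with a ratio, LDAH-Tg PM had 8 above and 7 below WT, with *Wdr45* (0.32), a WIPI relative, past 1.2 upward and *Tmem41b* (-0.29) and *Sh3glb1* (-0.27) past it downward. Over all genes 50.5% were above WT, and 11.2% and 8.48% were past 1.2 upward and downward. In LDAH-KO PM 13 of the 15 were lower, and *Wdfy3* (-0.43), *Epg5* (-0.29) and *Trp53inp1* (-0.29) were past 1.2, while 66.6% of all genes were lower and 15.6% lower by that size. *Rubcn*, a negative regulator of the kinase complex, had ratios of 0.13 and -0.05. Of 12 genes of autophagosome and lysosome fusion, *Vps16* (0.29), a HOPS complex subunit, alone reached 1.2 in LDAH-Tg PM, and none did in LDAH-KO PM. Of all genes, 11.2% were higher and 8.48% lower by that size in LDAH-Tg PM, and 3.22% and 15.6% in LDAH-KO PM.

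Among 14 further selective receptors with a ratio, 11 were lower in LDAH-Tg PM (49.5% of all genes), 4 of them by 1.2 or more (8.48%). *Ncoa4*, the ferritin receptor, was the only one past 1.5 (0.685% of all genes). It had 47.1 TPM in the WT controls and 30.4 TPM in LDAH-Tg PM (-0.62 on the log2 scale). It had 424 and 367 TPM in the WT controls and LDAH-KO PM (-0.21 on the log2 scale), so its level differed between the WT groups by more than it did with either genotype. The ER receptor *Ccpg1* followed with -0.42 in LDAH-Tg PM. The receptor *Calcoco2* was listed at 0 in each group.

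Of the 27 genes of mTORC1, AMPK and TFEB control, 3 were higher by 1.2 in LDAH-Tg PM, beside 11.2% of all genes. None was lower by that size, beside 8.48%. In LDAH-KO PM 6 were lower by that size, beside 15.6% of all genes, and none higher, beside 3.22%. *Mcoln1*, a lysosomal calcium channel, had 159 and 188 TPM in the WT controls and LDAH-Tg PM (0.24 on the log2 scale) and 156 and 115 TPM in the WT controls and LDAH-KO PM (-0.43 on the log2 scale). *Tfeb*, the factor that drives lysosomal and autophagy genes, had ratios of 0.21 and 0.03, its relatives *Tfe3* 0.15 and -0.30 and *Mitf* 0.10 and -0.28, and *Mtor* -0.01 and -0.17. *Zkscan3*, described as a repressor of autophagy genes, was 0.41 in LDAH-Tg PM and -0.02 in LDAH-KO PM.

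The 11 lysosomal membrane and proton pump genes had the lowest median in LDAH-Tg PM of the 5 lists of pathway genes read beside the machinery. All 11 were lower (49.5% of all genes), 6 of them by 1.2 or more (8.48%). The median log2 ratio was -0.27 beside the -0.0037 of the 37 autophagy genes. *Lamp1* had 1622 and 1121 TPM in the WT controls and LDAH-Tg PM (-0.53 on the log2 scale), *Lipa*, the lysosomal acid lipase, 1007 and 709 TPM (-0.51 on the log2 scale), and *Lamp2* 370.0 and 278 TPM (-0.41 on the log2 scale). In LDAH-KO PM the same list had a median of -0.01, with 5 higher and 6 lower, and ratios of 0.00, -0.09 and -0.04 for these 3 genes. The macrophage markers *Adgre1* and *Itgam* were lower in LDAH-Tg PM as well, as given above, and their part in these values was not tested. No test of the difference between lists was made.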

How the data were processed

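PolyA-enriched RNA of oxLDL-treated PM was sequenced by the authors as paired reads of 100 bases. Per the submitters' processing notes the genome was GRCm38 (mm10), and the tools named are STAR 2.4.2a, Cuffdiff 2.2.1, DESeq2, HTSeq, Trimmomatic and bcl2fastq 2.17.1.14. The tool that made the TPM values is not given in the sources used here. The authors deposited 1 mean TPM per group for 48432 genes, with each column summing to 1000000, and 1 further line without a gene that repeats the total and was not used. There is no column for a single sample, and 0 columns were unmatched, so the depth, the SD and the limma fits planned for values per sample were not possible.

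The members and lists were chosen with earlier results of these data known. Ratios used a mean TPM of at least 1, no group at 0 and an added 0.5. Values are named for members past a factor of 1.2, the Atg8 family, the cargo receptors and the 10 most abundant members, for up to 4 genes of the largest ratio per other list, and for *Tfeb*, *Tfe3*, *Mitf*, *Mtor*, *Rubcn*, *Lamp1* and *Lamp2*. The other members are given briefly. Transcript lengths, GC content and shared stretches come from GENCODE M21, promoters from RefSeq. The steps were tested on simulated data. Alternatives were added amounts of 0.1, 1 and none, no filter or a mean of at least 5, and genes with a group at 0 kept. Others were protein-coding genes alone, median-ratio scaling, quantile normalization, and centring by bins of length or GC content. The last 2 and the ratio with nothing added were chosen after seeing the data. Software was numpy 2.4.6, pandas 2.3.3 and matplotlib 3.10.9 under Python 3.11.15.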

Additional observations from a re-analysis of the deposited data

How the results depend on the processing

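No paired analysis was possible because the table holds group means only, and for the same reason no sample could be left out in turn and no replicate block could be fitted. Among the counts and medians recomputed under the alternatives, 144 stayed within 1.5 times the count or within 0.1 of the median given in the report, and 21 did not. The 144 include counts of 0 that stayed at 0, and 0.1 is wide beside the genotype medians. They also include the LDAH-KO median, -0.10 and -0.0051 when centred by length, and the LDAH-Tg median, -0.0037 and 0.024 when centred by GC content. With 1 TPM added to each mean, 1 member in place of 2 was higher by 1.5 between the WT groups. With median-ratio scaling, members lower by 1.2 in LDAH-KO PM numbered 1, those higher and lower by 1.5 between the WT groups 5 and 5 with a median of -0.067, and those lower in LDAH-Tg PM and higher in LDAH-KO PM 10. With quantile normalization the same values were 1, 4 and 6, -0.11 and 10. Centred by length, they were 0, 4 and 6, -0.0098 and 11, with 1 member higher by 1.2 in LDAH-KO PM (*Atg4d*) and 2 lower in LDAH-Tg PM (*Atg3* and *Gabarapl2*). Centred by GC content, 0 members were lower by 1.2 in LDAH-Tg PM, and 5 were lower by 1.5 between the WT groups with a median of -0.14. Of all genes, 5.8% were lower and 3.76% higher by 1.2 in LDAH-KO PM when centred by length. In LDAH-Tg PM 8.6% were lower by that size when centred by length and 6.81% when centred by GC content. Between the WT groups 16.5% and 16% were higher and lower by 1.5 when centred by length. Centred by GC content, 15% were lower. The cause of these moves was not tested. In LDAH-KO PM 6 members turned from below to above WT with median-ratio scaling (*Atg10*, *Atg16l1*, *Atg4a*, *Atg4c*, *Gabarapl1* and *Sqstm1*) and 6 with quantile normalization (*Ulk2*, *Atg14*, *Atg10*, *Atg16l1*, *Atg4a* and *Atg4c*). Centring by length turned 10 members there and centring by GC content 7, and the latter turned *Ulk2* and *Rb1cc1* in LDAH-Tg PM. The 5 members past 1.2 kept their direction. *Atg16l2* in LDAH-Tg PM stayed between 0.53 and 0.57, *Atg3* between -0.32 and -0.24, and in LDAH-KO PM *Ambra1* stayed between -0.43 and -0.22, *Pik3r4* between -0.35 and -0.18 and *Atg2b* between -0.37 and -0.06. Without depth or values per sample, a difference of the size seen for nearly all members cannot be separated from the spread between mice.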
